A study of Mus musculus with 2 samples.

Results

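The genes described here are the Wnt ligands, their receptors and the effectors of the canonical pathway: every measured gene whose symbol is that of a Wnt, Frizzled (Fzd), secreted Frizzled-related (Sfrp), Dickkopf (Dkk) or R-spondin (Rspo) gene, together with Lrp5, Lrp6, Ctnnb1, Axin1, Axin2 and the Tcf/Lef factors Lef1, Tcf7, Tcf7l1 and Tcf7l2. They were chosen by name, and they are 50 of the 55416 features counted. RNA was counted in single nuclei from thawed whole fetal brain of the mouse, with 1 library labelled wildtype and 1 labelled Cav1 knockout, the gene of the caveolar coat protein caveolin 1. Values in pairs name the wildtype-labelled library first and the knockout-labelled one after it. The labels give neither the fetal day, the strain, the sex nor how many fetuses went into a library, and the knockout allele is not described. Since each genotype is 1 library, genotype, animal and library preparation cannot be told apart, and no test between the genotypes was possible.

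Wnt proteins are secreted, lipid-bearing ligands that bind Frizzled receptors, and with the co-receptors Lrp5 and Lrp6 they stop the Axin-based destruction complex from degrading β-catenin, which then works with Tcf/Lef proteins at DNA. R-spondins strengthen the response by keeping Frizzled receptors at the cell surface, whereas Sfrp proteins bind the ligands and Dkk1 and Dkk2 act on Lrp5 and Lrp6. In the fetal brain the pathway is known for patterning the forebrain from the cortical hem, the medial rim of the cortex beside the choroid plexus, for the growth of the thalamus and midbrain, and for forming brain vessels with a blood-brain barrier.

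After barcodes with under 500 genes or over 5% mitochondrially encoded UMIs were left out, 6686 nuclei with 17205381 UMIs (unique molecular identifiers, 1 per captured RNA molecule) remained from wildtype and 6680 with 19878903 from knockout. The median nucleus held 2133.5 and 2366 UMIs. The libraries shared 10 of the kept barcodes. Over all nuclei Cav1 did not separate the libraries, with 71 and 80 UMIs. In endothelial-like nuclei, a main site of Cav1, it had 14 and 0 UMIs, that is 113 and 0 CPM (a gene's counts scaled to the total UMIs of the same nuclei), and the exact Poisson interval around the 0 reaches 20.9 CPM. It was higher with knockout in neuron-like nuclei, with 2 and 20 UMIs, and in cortical excitatory neuron-like nuclei, with 2 and 10. The nuclei were clustered without the Wnt genes and named from marker lists. Marker sums and class shares differed between the libraries, and sampling and genotype cannot be told apart in them: in the large neuron-like cluster 0 the 8 marker genes of the midbrain-hindbrain boundary summed to 57.1 and 113 CPM, and all 8 were higher with knockout, while cortical excitatory neuron-like nuclei were 21.8% and 15.9% of the clustered nuclei.

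Sequences before the starts of 3 of the genes are shown first, because Lef1 and Tcf7l2 are the genes on which the comparison of the libraries turns and Axin2 is the usual readout of the pathway. Each is the stretch of 250 bases before an annotated start, from RefSeq on GRCm38.p6, read 5′ to 3′ on the strand of the gene. Capitals mark a match, on either strand, to 1 of 4 motifs that fit the letters Tcf/Lef proteins bind: CTTTGAA, then the variant ending in T, which is CTTTGAT, then the variants with T before the end, which are CTTTGTA and, last of the set, CTTTGTT.
Lef1, internal start, chr3:131156044-131156293, plus strand: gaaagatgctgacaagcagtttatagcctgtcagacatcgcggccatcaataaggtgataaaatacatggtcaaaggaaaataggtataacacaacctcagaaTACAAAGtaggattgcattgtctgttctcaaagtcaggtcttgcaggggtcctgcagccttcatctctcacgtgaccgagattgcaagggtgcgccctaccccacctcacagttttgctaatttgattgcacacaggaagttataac
Tcf7l2, internal start, chr19:55895071-55895320, plus strand: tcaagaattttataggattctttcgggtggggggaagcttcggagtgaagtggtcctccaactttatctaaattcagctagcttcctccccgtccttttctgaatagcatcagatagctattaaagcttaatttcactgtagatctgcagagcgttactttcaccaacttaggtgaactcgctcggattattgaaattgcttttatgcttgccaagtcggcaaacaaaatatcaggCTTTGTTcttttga
Axin2, chr11:108920099-108920348, plus strand: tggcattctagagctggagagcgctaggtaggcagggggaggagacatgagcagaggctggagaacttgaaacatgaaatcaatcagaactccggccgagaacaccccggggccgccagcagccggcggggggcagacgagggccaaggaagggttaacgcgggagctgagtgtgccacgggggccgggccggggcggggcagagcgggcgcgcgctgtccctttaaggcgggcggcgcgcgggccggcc

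The Lef1 stretch holds CTTTGTA on the strand opposite to the gene, beginning 147 bases before the start, and the Tcf7l2 stretch holds CTTTGTT on its own strand, beginning 14 bases before it. The Axin2 stretch holds none of the 4 motifs, nor do the windows before the other Lef1 and Tcf7l2 starts. Over the Wnt genes, 42 such windows of 33 genes were found, and 6 of them (14.3%) held a motif, against 14.8% of all 32851 windows. The other windows with a motif belonged to Fzd7, Wnt5b, Wnt11 and Dkk1. Counts at the 3′ end do not say from which start an RNA came. A match describes letters only.

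Of the 50 genes, 31 had at least 100 UMIs over both libraries, and they spanned every step of the pathway. The most abundant by UMIs were Tcf7l2 (5878 and 6121), Ctnnb1, the gene of β-catenin (3619 and 3826), Lrp6 (2364 and 2696), Fzd3 (2260 and 2622) and Lef1 (2075 and 1836). These counts are not scaled by gene length, so they do not rank the genes by expression. Of the 19 Wnt ligands, 8 reached 100 UMIs: Wnt2b, Wnt3, Wnt4, Wnt5a, Wnt5b, Wnt7a, Wnt7b and Wnt8b.

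The other 11 ligands were rare or not seen. Wnt9a had 54 and 41 UMIs, Wnt6 had 31 and 38, and Wnt3a had 19 and 19. Wnt1, the ligand of the midbrain and hindbrain boundary, had 3 and 11, Wnt2 had 7 and 5, Wnt10a had 4 and 8, Wnt16 had 4 and 6, Wnt11 had 2 and 9, and Wnt9b had 1 and 6. Wnt10b had 0 and 1. Wnt8a had 0 in both, with exact Poisson upper limits of 0.214 and 0.186 CPM. Among the other groups, Rspo4, Fzd4, Fzd5, Fzd7, Dkk1, Dkk4, Sfrp4 and Sfrp5 stayed under 100 UMIs, with 2 to 49 UMIs each for wildtype and 2 to 48 for knockout.

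The R-spondins were the most locally found group, with a median of 32.6-fold and 13.5-fold over all other nuclei in their highest class, and with some ligands they met at 1 small site. In a finer clustering, cluster 22, with 106 and 95 nuclei, carried 6 of 7 choroid plexus markers (Ttr, Folr1, Kcne2, Clic6, Otx2 and Htr2c), 3 of 5 markers of the cortical hem or roof plate (Lmx1a, Msx1 and Bmp6), and 6 of 8 markers of dividing cells. It is called here the Ttr and Lmx1a cluster. It has no class name. Of its 201 nuclei, 72 and 59 lay in the radial glia-like cluster of the main setting and 32 and 34 in the choroid plexus epithelium-like one.

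The Ttr and Lmx1a cluster held 1.69% and 1.73% of all UMIs of the clustered nuclei but a much larger part of several signals. The clustered nuclei leave out those set aside by doublet score, and the shares and levels given for this cluster are over them. Over all kept nuclei Rspo2 had 410 and 381 UMIs. For Rspo2 it held 173 of 309 UMIs (56.0%) with wildtype and 177 of 340 (52.1%) with knockout. That is 700 and 593 CPM, against 9.44 and 9.60 CPM in all other nuclei. For Rspo1 it held 61.8% and 43.2%, with 170 and 107 CPM. Both R-spondins were thus highest by far at the same place in both libraries.

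Among the ligands, Wnt8b had 27 and 28 UMIs in the Ttr and Lmx1a cluster, 50.9% and 47.5% of its UMIs in the clustered nuclei. Over all kept nuclei Wnt8b had 64 and 66 UMIs. The shares that follow are over the clustered nuclei too. Wnt3a, a canonical ligand of the hem, had 13 of 17 (76.5%) and 9 of 17 (52.9%). Wnt9a had 41.5% and 42.4%. These 5 genes share the site in both libraries, Wnt3a, Wnt8b, Wnt9a and Rspo1 with 42 or fewer molecules in each. Wnt7b lay elsewhere: 1.09% and 1.90% of its UMIs fell in this cluster, close to the cluster's share of all UMIs.

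**Figure D1:**
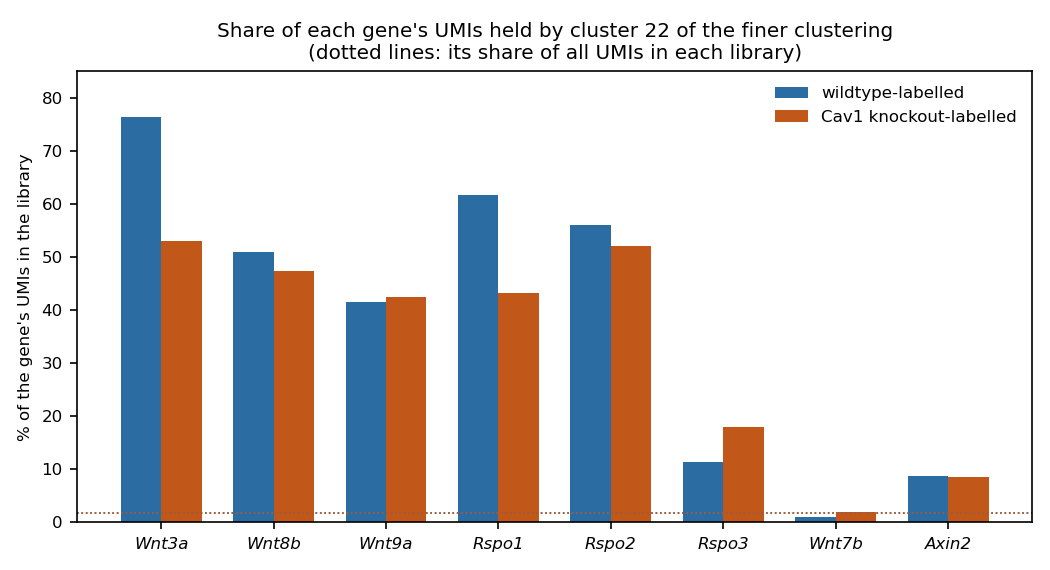
Share of each gene's UMIs in the clustered nuclei, in percent, that the Ttr and Lmx1a cluster held in each library (blue for wildtype, orange for knockout). Dotted lines mark the cluster's share of all UMIs of these nuclei, 1.69% and 1.73%. Wnt3a, Wnt8b, Wnt9a, Rspo1 and Rspo2 have between 41.5% and 76.5% of their wildtype-labelled UMIs there, and Wnt7b is at the level of the dotted lines.

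Axin2 was high at that place as well. This feedback inhibitor, which the pathway itself induces, was at 194 and 158 CPM in the Ttr and Lmx1a cluster, against 34.4 and 29.8 CPM in other nuclei. Rspo3 had 510 and 738 CPM there, against 68.3 and 59.1 CPM elsewhere, and the ratio of the libraries had a log2 value of 0.53 with an exact 95% interval of 0.21 to 0.86. For Rspo2, Rspo1, Wnt8b, Wnt3a, Wnt9a and Axin2 the intervals of the ratio included 0. All intervals here cover counting error only.

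Among the classes, Rspo3 had a different highest place from Rspo1 and Rspo2. By class it was highest in Cajal-Retzius cell-like nuclei, the first-born neurons of the cortical surface, with 958 CPM (195 UMIs in 75 wildtype-labelled nuclei) against 419 CPM (186 UMIs in 154 knockout-labelled nuclei). Next came radial glia-like nuclei with 240 and 274 CPM, and cortical excitatory neuron-like nuclei with 149 and 158 CPM. The cortical neurons gave the most molecules, 482 and 419 UMIs. With knockout, the level of Rspo3 in the Ttr and Lmx1a cluster was above that in Cajal-Retzius cell-like nuclei.

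Marker sums of the Cajal-Retzius cell-like class differed between the libraries. Its own 7 markers summed to 7740 and 5961 CPM (−0.38, −0.47 to −0.29). Markers of the midbrain-hindbrain boundary summed to 6 UMIs (29.5 CPM) with wildtype and 93 UMIs (209 CPM) with knockout. Pax8, Fgf8 and Fgf17 were at 0 in both libraries and En1 at 0 with wildtype, and the part of either list in the Rspo3 difference was not tested. In the finer clustering, a purer set of 37 and 34 nuclei led by Trp73 and Reln had Rspo3 at 878 and 695 CPM, with a log2 ratio of −0.34 (−0.75 to 0.08). The whole class gave −1.19 (−1.49 to −0.90), and the best-matching clusters of other settings gave −0.21 to −2.44. The −2.44 came from a cluster of only 18 and 107 nuclei, in the setting with Wnt genes allowed among the variable genes. With doublet-scored nuclei kept, the matching cluster held 83.8% of the class and was Cajal-Retzius cell-like. In the other settings the matching clusters held 47.2% to 53.7% of the class and carried another name or none. The boundary markers summed to 2 UMIs in each library in the purer set. Its 7 Cajal-Retzius markers were higher with knockout, at 12551 and 15548 CPM (0.31, 0.21 to 0.41), unlike in the whole class. Other lists differed in the purer set too, among them dividing cell markers (61.4 and 186 CPM) and intermediate progenitor markers (272 and 122 CPM). The part of these lists in its Rspo3 values was not tested.

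Cortical excitatory neuron-like nuclei held the most molecules of Wnt7b, a canonical ligand known for guiding vessels into the brain. There were 383 UMIs (118 CPM) and 254 UMIs (95.8 CPM), and the log2 ratio was −0.31 (−0.54 to −0.07). Radial glia-like nuclei had Wnt7b at a similar 106 and 116 CPM, on 48 and 91 UMIs. Its closest relative Wnt7a was instead highest in dividing cell-like nuclei, at 69.8 and 75.8 CPM, and was at 65.3 and 59.8 CPM in forebrain inhibitory neuron-like nuclei. In cortical excitatory neuron-like nuclei Wnt7a was at 7.11 and 7.54 CPM.

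The remaining ligands were spread thinly or lay outside the neural classes. Wnt4 was highest in fibroblast-like nuclei, with 65.0 CPM (15 UMIs) and 123 CPM (28 UMIs). Wnt6 was found there too, with 16 and 8 UMIs. Wnt5a, a ligand known mainly for β-catenin-independent signalling, was at 54.1 and 56.3 CPM in Cajal-Retzius cell-like and at 52.0 and 57.2 CPM in fibroblast-like nuclei. Wnt5b was at 59.5 and 54.2 CPM in dividing cell-like nuclei. Its highest class was choroid plexus epithelium-like with wildtype, at 59.8 CPM on 5 UMIs, and fibroblast-like with knockout, at 96.8 CPM on 22 UMIs. With both libraries joined it was fibroblast-like. Wnt3 was highest in radial glia-like nuclei, 28.6 and 19.1 CPM on 13 and 15 UMIs, and had 24 and 23 UMIs in other excitatory neuron-like nuclei. Wnt2b had 18 and 17 UMIs in radial glia-like nuclei.

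**Figure D2:**
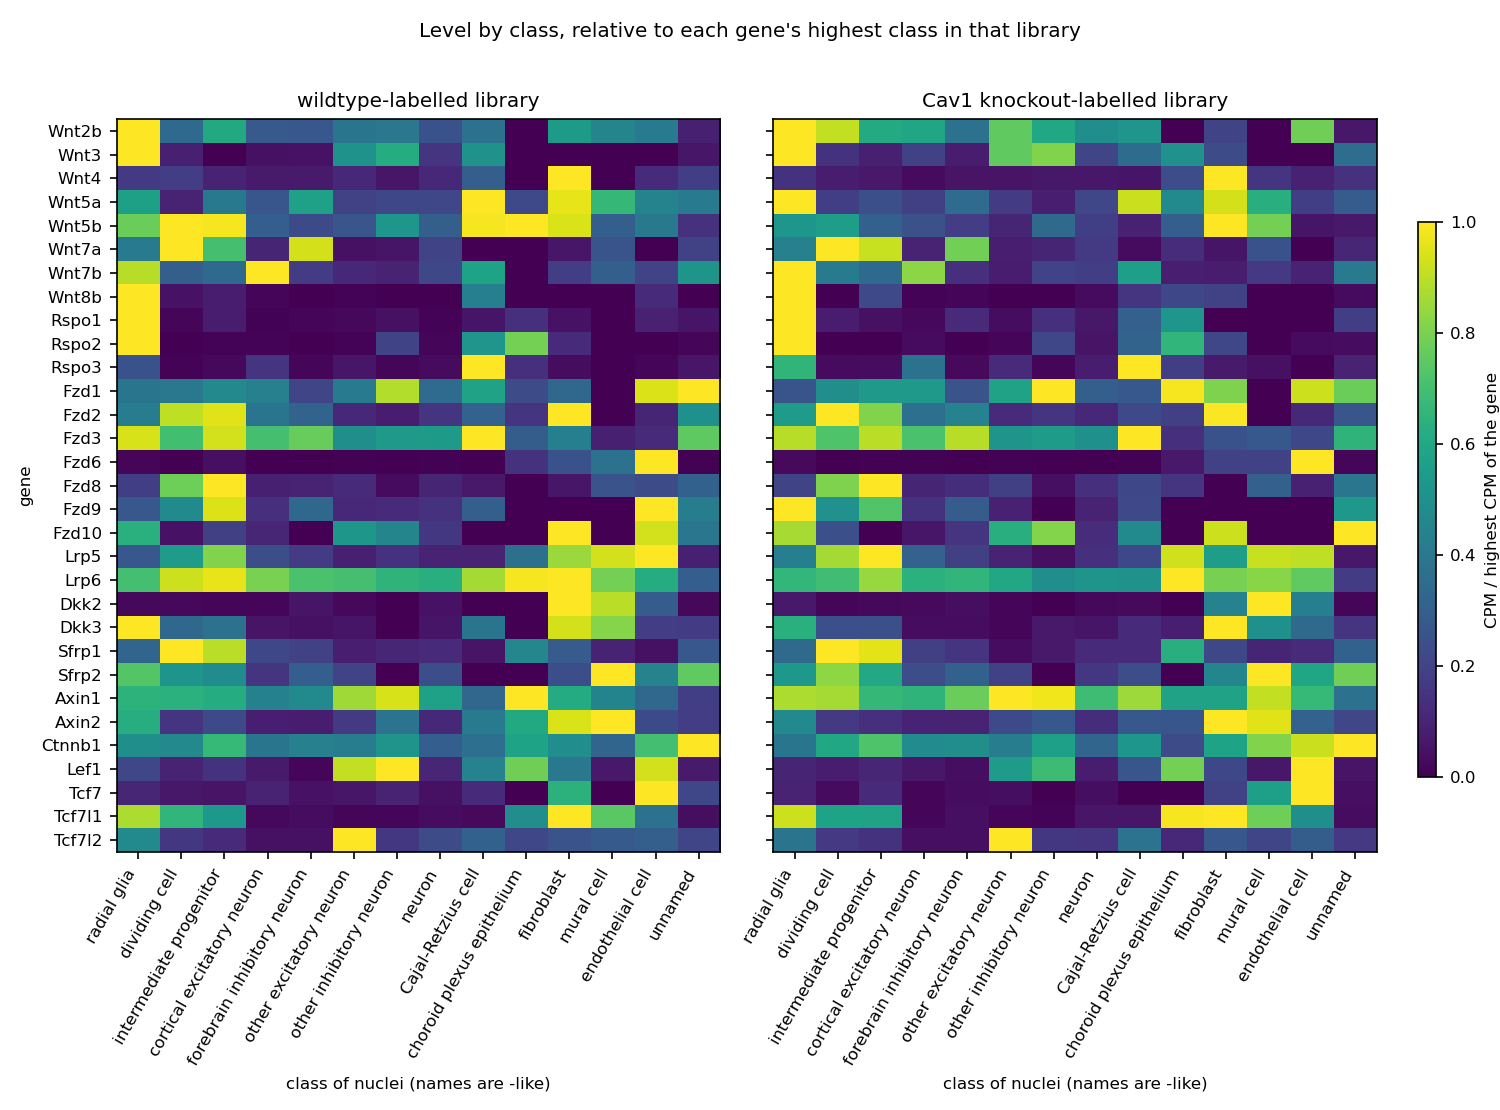
Level of each of the 31 genes in 14 classes of nuclei, as CPM divided by the gene's highest class CPM in the same library (colour scale from 0 to 1), for each library (wildtype left, knockout right). Rows run from ligands at the top to Tcf/Lef factors at the bottom. Bright single cells mark local genes such as Wnt8b and Rspo1 in radial glia-like nuclei and Fzd6 in endothelial cell-like nuclei, whereas Lrp6 is bright across many classes.

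Among the receptors, Fzd3 and Lrp6 had no class far above the rest, and Fzd6 was local. For Fzd3, a Frizzled known for axon guidance, the highest class stood 1.54-fold and 1.63-fold over all other nuclei. Its classes still ranged from 18.0 to 201 CPM with wildtype and from 29.1 to 209 CPM with knockout. For Lrp6 the highest class stood at 1.38-fold and 1.74-fold, and the lowest, the unnamed nuclei, was at 54.5 and 40.8 CPM. Classes with under 20 nuclei in a library were not ranked. In endothelial-like nuclei Fzd6 had 30 and 51 UMIs, at 242 and 289 CPM. That was 81.5-fold and 112-fold over the other ranked nuclei. The 30 and 51 UMIs were 41.1% and 53.7% of its UMIs in the ranked classes, which hold clustered nuclei only. Over all kept nuclei Fzd6 had 91 and 130 UMIs.

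The endothelial-like nuclei, 35 and 44 in number, also held other genes of the pathway. Lef1 was at 484 CPM (60 UMIs) and 588 CPM (104 UMIs), with the log2 ratio at 0.28 (−0.19 to 0.76). Tcf7, with 65 and 69 UMIs over all nuclei, was at 40.3 CPM (5 UMIs) and 67.9 CPM (12 UMIs), highest among all classes in both libraries. Fzd4, the receptor of the vascular ligand norrin, had 4 and 6 UMIs there. Apcdd1, an inhibitor at the cell surface that is known as a target of the pathway in brain vessels, was at 855 CPM (106 UMIs) and 1194 CPM (211 UMIs). The interval of the Apcdd1 ratio did not include 0, with the log2 value at 0.48 (0.14 to 0.83). The part of Cav1, with its 14 and 0 UMIs in this class, in these values was not tested.

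Several receptors were high in progenitor-like classes, and some of them in other classes too. Fzd8 was highest in intermediate progenitor-like nuclei, at 71.0 and 62.7 CPM, followed by dividing cell-like nuclei at 55.3 and 50.5 CPM. In cortical excitatory neuron-like nuclei it was at 6.19 and 6.41 CPM. Fzd2 had 74.2 and 82.5 CPM in intermediate progenitor-like and 70.6 and 102 CPM in dividing cell-like nuclei, and a similar 78.0 and 101 CPM in fibroblast-like nuclei. Fzd9 had 14 and 9 UMIs in intermediate progenitor-like nuclei, and 2 and 0 in endothelial-like ones. Lrp5, the second co-receptor, was at 78.6 and 62.7 CPM in intermediate progenitor-like and 23.2 and 19.6 CPM in cortical excitatory neuron-like nuclei, but on 12 and 10 UMIs it was at 96.8 and 56.6 CPM in endothelial-like nuclei. Fzd1 was at 45.2 and 49.0 CPM in other inhibitory neuron-like nuclei, and Fzd10 at 9.20 and 11.9 CPM in other excitatory neuron-like nuclei.

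Among the secreted antagonists, Sfrp1 was high in progenitor-like classes and Dkk2 in vessel and connective tissue classes. Dkk3 was high in both radial glia-like and fibroblast-like nuclei. Sfrp1 was highest in dividing cell-like nuclei, at 181 CPM (213 UMIs) and 184 CPM (197 UMIs), and was at 163 and 176 CPM in intermediate progenitor-like nuclei. Sfrp2 was sparse, with 9.36 and 15.9 CPM in dividing cell-like nuclei. Dkk2 was at 221 CPM (51 UMIs) and 110 CPM (25 UMIs) in fibroblast-like and at 198 and 248 CPM in mural cell-like nuclei, the pericytes and smooth muscle of vessels. Dkk3, a divergent relative, was at 88.1 and 72.6 CPM in radial glia-like and at 82.3 and 114 CPM in fibroblast-like nuclei.

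Within the destruction complex, Axin2 stood further above the rest in its highest class than Axin1 did. Axin1, the constitutive scaffold, stood 1.76-fold and 1.42-fold over other nuclei in its highest class, and was lowest in unnamed nuclei at 22.2 and 31.3 CPM. Axin2 was at 216 CPM (12 UMIs) and 172 CPM (9 UMIs) in mural cell-like nuclei, at 204 and 180 CPM in fibroblast-like and at 134 and 86.6 CPM in radial glia-like nuclei. It was at 18.2 and 18.1 CPM in cortical excitatory neuron-like nuclei. Ctnnb1 was highest, at 496 and 424 CPM, in unnamed nuclei of low depth (cluster 1) that were 10.3% and 15.6% of the clustered nuclei and had the haemoglobin genes Hba-x and Hbb-y among their leading genes.

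The 4 Tcf/Lef genes differed in the class where they were highest, and their places overlapped. In dividing cell-like nuclei, for example, Tcf7l2 was at 219 and 228 CPM and Tcf7l1 at 240 and 171 CPM. Tcf7l2 was highest in neurons outside the cortex: in other excitatory neuron-like nuclei it was at 1338 CPM (2182 UMIs) and 1378 CPM (2191 UMIs), against 58.6 and 54.6 CPM in forebrain inhibitory neuron-like nuclei. Of the 2 clusters of that class, the one led by Rnf220 and Prox1os (cluster 13) had 1823 and 1783 CPM, and the one led by Pou4f1 and Tfap2d (cluster 6) had 946 and 1146 CPM. In cluster 13, 94.1% and 94.4% of the nuclei had a Tcf7l2 UMI (median depth 2710 and 3132). Where the gene is low, in cortical excitatory neuron-like nuclei, 11.8% and 11.9% did (median depth 2193 and 2393).

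Lef1 had its highest levels in 4 unlike places. It was at 666 CPM (601 UMIs) and 386 CPM (391 UMIs) in cluster 6, and at 519 and 403 CPM in other inhibitory neuron-like nuclei, which have Pax7, Dmbx1 and Sox14 among their leading genes. It was also at 484 and 588 CPM in endothelial-like and at 406 and 465 CPM in choroid plexus epithelium-like nuclei. In forebrain inhibitory neuron-like nuclei it was at 10.1 and 21.4 CPM. Tcf7l1, known mainly as a repressor, was lowest in neurons: it was at 319 and 272 CPM in radial glia-like, 240 and 171 CPM in dividing cell-like, and 5.52 and 4.40 CPM in other excitatory neuron-like nuclei, and it was highest in fibroblast-like nuclei at 364 and 295 CPM.

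**Figure D3:**
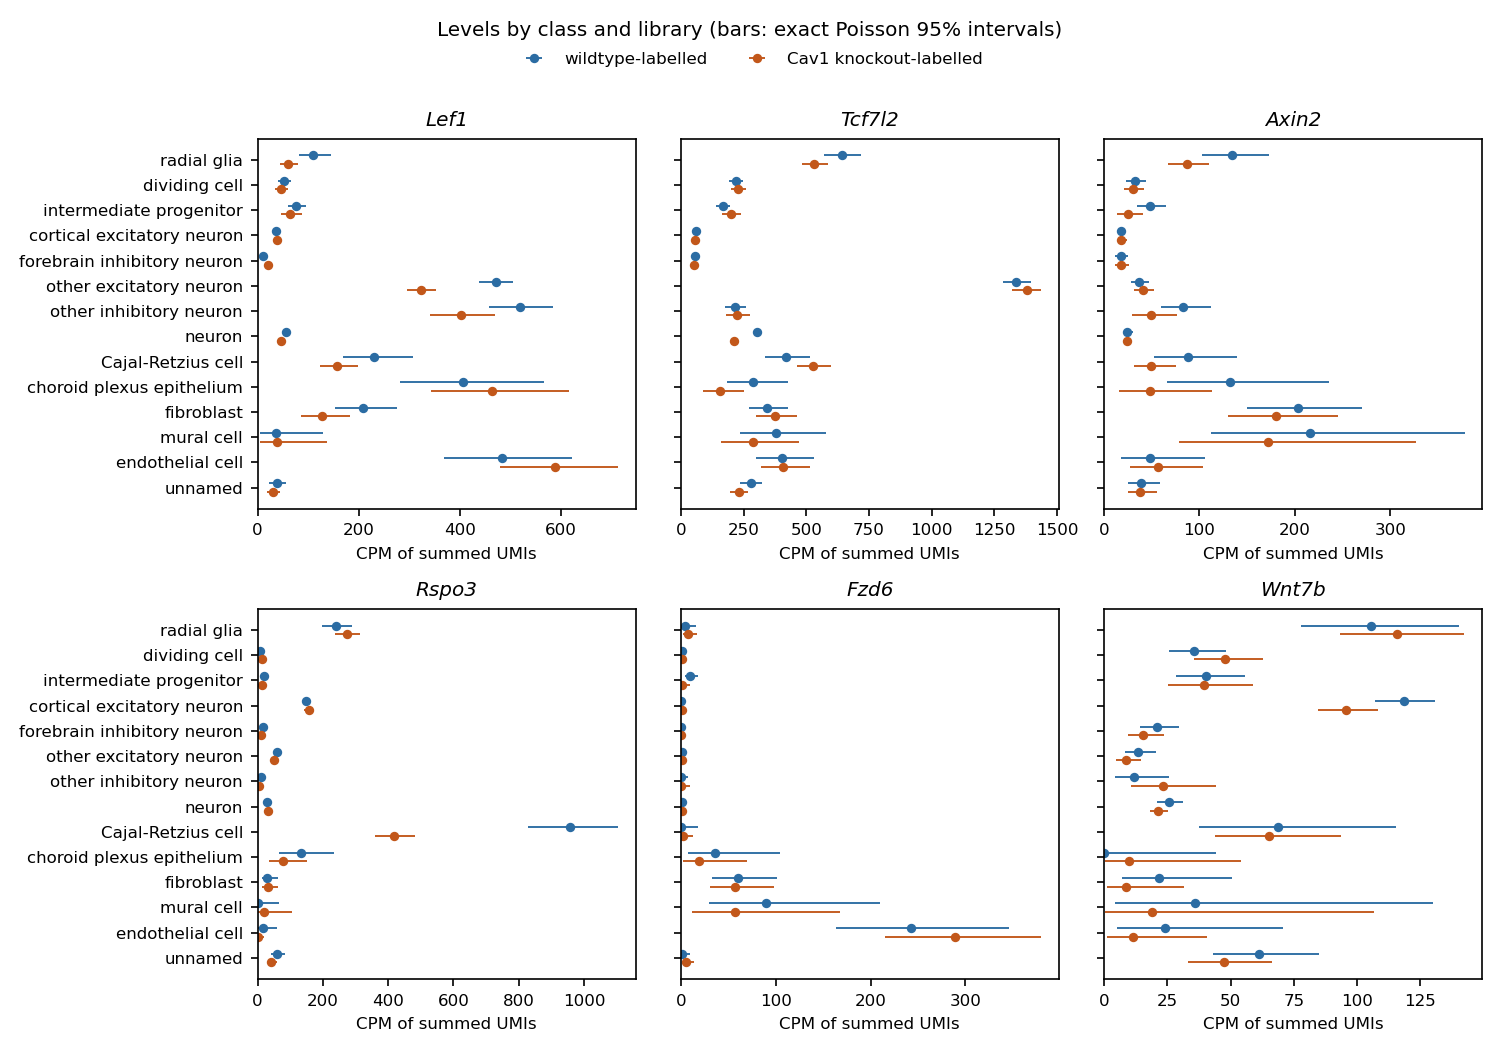
CPM of Lef1, Tcf7l2, Axin2, Rspo3, Fzd6 and Wnt7b in 14 classes of nuclei in each library (blue for wildtype, orange for knockout), with exact Poisson 95% intervals of the summed UMIs. Tcf7l2 peaks in other excitatory neuron-like nuclei at 1338 and 1378 CPM, Fzd6 in endothelial-like nuclei at 242 and 289 CPM, and the largest gap between the libraries is that of Rspo3 in Cajal-Retzius cell-like nuclei, 958 against 419 CPM.

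The place of highest level was shared by the libraries for 17 of the 31 genes by class. The share over all genes was not computed, so this count describes the 31 genes only. Some of it rests on very few molecules. Sfrp2 counts as shared on 1 UMI per library in mural cell-like nuclei, and Fzd9 as not shared on 2 wildtype-labelled UMIs in endothelial-like nuclei. All 3 R-spondins with at least 100 UMIs and 3 of the 4 Tcf/Lef genes kept their class, but 0 of the 2 co-receptors and 3 of 7 Frizzled genes did. The median gene stood 4.82-fold and 5.23-fold over other nuclei in its highest class. By group the medians with knockout were 2.32-fold for β-catenin and the Axins, 2.92-fold for the co-receptors, 4.17-fold for the ligands, 4.19-fold for the Frizzled genes, 6.89-fold for the Tcf/Lef genes, 7.59-fold for the antagonists and 13.5-fold for the R-spondins.

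The first comparison between the libraries is over all nuclei. None of the 31 genes was past 1.5-fold: 0 were higher with knockout, where 2.12% of 15528 genes were, and 0 were lower, where 0.605% were (2.72% in either direction). The median log2 ratio (knockout over wildtype) was −0.14 for these genes and −0.01 for all genes. Of the 31, 22 were below 0 (71.0%), against 53.6% of all genes. A counting interval lay wholly below 0 for 10 genes and wholly above 0 for 1, and it included 0 for the other 20. The share of all genes with such intervals was not computed, so these counts do not set the Wnt genes apart from other genes.

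By group, the Frizzled genes alone had a median above 0. The 3 R-spondins had a median of −0.28, the 4 Tcf/Lef genes −0.18 and the 3 genes of β-catenin and the Axins −0.14, with every gene of these groups below 0. The 8 ligands had −0.15 with 5 below 0, the co-receptors −0.23 and the 4 antagonists −0.10. The 7 Frizzled genes had a median of 0.14 with 2 below 0. When the classes were weighted alike in both libraries, the median of all 31 genes was −0.07.

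Lrp5 had the lowest ratio of the 31, with 421 UMIs (24.5 CPM) and 357 UMIs (18.0 CPM), a log2 value of −0.45 (−0.65 to −0.24). With classes weighted alike it was −0.25. Its partner Lrp6 was at 137 and 136 CPM, a log2 ratio of −0.02 (−0.10 to 0.06). Lef1 followed, with 121 and 92.4 CPM and −0.38 (−0.48 to −0.29), and it was −0.34 with classes weighted alike.

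Rspo2 (23.8 and 19.2 CPM) and Wnt7b (48.9 and 39.5 CPM) had log2 ratios of −0.31 each, with intervals of −0.52 to −0.11 and −0.45 to −0.17. With doublet-scored nuclei left out, Rspo2 was at −0.10. Tcf7l2 was at 342 and 308 CPM, −0.15 (−0.20 to −0.10), Rspo3 at 80.1 and 69.3 CPM, −0.21 (−0.32 to −0.10), and Axin2 at 36.6 and 33.0 CPM, −0.15 (−0.31 to 0.01). On the other side Wnt4 was at 7.90 and 10.1 CPM, 0.36 (0.03 to 0.68), and Fzd10 at 3.78 and 4.88 CPM, 0.37 (−0.10 to 0.85). Every one of these differences was smaller than 1.5-fold.

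**Figure D4:**
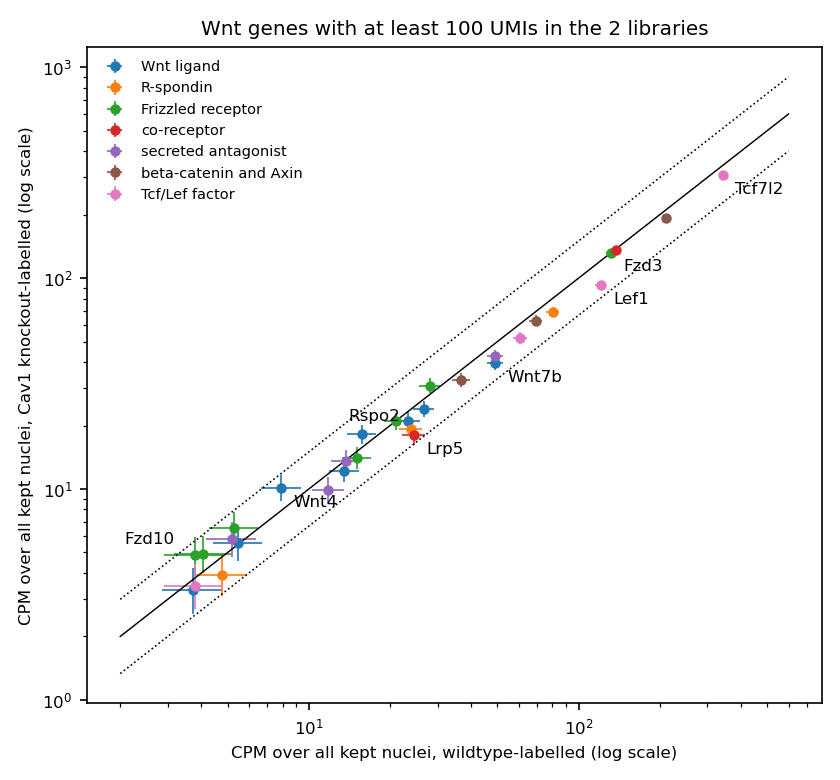
CPM over all kept nuclei, with wildtype on the x axis and knockout on the y axis, both log scales, for the 31 genes, coloured by role, with exact Poisson 95% intervals. The solid line marks equal levels and dotted lines mark 1.5-fold; every gene lies between the dotted lines, with Lef1, Lrp5 and Wnt7b below the solid line and Wnt4 and Fzd10 above it.

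Of 57 further Wnt pathway genes, 53 reached 100 UMIs, and 0 were past 1.5-fold in either direction, where 2.72% of all genes were. Their median log2 ratio was −0.02, with 31 below 0. The 5 feedback targets, among them Nkd1, Tnfrsf19 and Sp5, had −0.11 with 3 below 0, the 13 genes of the cytoplasmic relay, among them Dvl1, Gsk3b and Apc2, had −0.02 with 9 below 0, and the 9 of planar cell polarity had 0.01 with 3 below 0. The 5 further extracellular antagonists, Apcdd1 among them, had 0.07 with 1 below 0. Wls, which carries Wnt proteins to the cell surface, was highest in fibroblast-like nuclei with wildtype (368 CPM) and in choroid plexus epithelium-like nuclei with knockout (349 CPM).

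Within classes, 5 were compared, each with at least 200 nuclei in each library. The neuron-like class (1102 and 1531 nuclei) and the unnamed nuclei (631 and 961) also had that many but were not compared as classes. Genes needed 20 UMIs in the class. In cortical excitatory neuron-like nuclei 3 of 24 genes were past 1.5-fold higher with knockout (Dkk2, Rspo2 and Sfrp2, each with 18 or fewer UMIs per library), where 5.23% of all genes were, and 0 were lower, where 4.77% were. In intermediate progenitor-like nuclei 0 of 21 were higher (7.54% of all genes) and 3 were lower (8.57%): Axin2, Wnt2b and Wnt5b. In other excitatory neuron-like nuclei 0 of 20 were higher (6.4%) and 3 were lower (6.08%): Sfrp1, Wnt5b and Wnt7b.

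In forebrain inhibitory neuron-like nuclei 2 of 20 genes were higher (6.54% of all genes), Fzd2 and Lef1, and 1 was lower (5.54%), Rspo3. In dividing cell-like nuclei 1 of 22 was higher (6.18%), Sfrp2, and 0 were lower (6.25%). That makes 13 of 107 ratios past 1.5-fold over the 5 classes, where 12.4% over all genes were. The counting interval left out 0 for 5 of these 13, and the share of all genes with such intervals was not computed.

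Fzd2 was higher with knockout in both forebrain inhibitory neuron-like nuclei, 24.9 against 45.0 CPM on 37 and 61 UMIs (log2 0.85, 0.24 to 1.48), and dividing cell-like nuclei, 70.6 against 102 CPM on 83 and 109 UMIs (0.53, 0.10 to 0.96). Tcf7l1 was lower in dividing cell-like nuclei, 240 against 171 CPM on 282 and 183 UMIs (−0.49, −0.76 to −0.21). Wnt5b in intermediate progenitor-like nuclei was at 58.9 against 29.7 CPM on 54 and 18 UMIs (−0.99, −1.85 to −0.20). Axin2 in the same class was at 48.0 against 24.7 CPM on 44 and 15 UMIs (−0.96, −1.91 to −0.08), but this direction was not kept in other clusterings, where the log2 ratio was between 0.00 and 0.44 in 3 of them.

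Lef1 in the Pou4f1 and Tfap2d cluster was among the differences with the most molecules behind them. In cluster 6, 316 and 313 nuclei gave 666 and 386 CPM, a log2 ratio of −0.79 (−0.97 to −0.60). In this cluster 1 of 14 genes was past 1.5-fold lower, Lef1, where 7.34% of all genes were, and 2 were higher, Fzd2 and Fzd8 (8.24%). A Lef1 UMI was found in 56.6% and 41.2% of the nuclei, at median depths of 2613 and 2974 UMIs. Thinned to 1000 UMIs per nucleus the shares were 40.1% (34.7% to 45.8%, exact binomial) and 22.3% (17.7% to 27.4%), and in cortical excitatory neuron-like nuclei, where Lef1 is low, they were 3.14% and 2.92%.

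The same nuclei did not share this direction for Tcf7l2, which was at 946 and 1146 CPM in cluster 6 (0.28, 0.15 to 0.41). In the best-matching clusters of other settings it was between 0.23 and 0.62, but −0.05 with doublet-scored nuclei kept. The 11 markers of the class summed to 2392 and 2411 CPM, and 5 of them were higher with knockout. The 8 markers of the midbrain-hindbrain boundary summed to 23.3 CPM (21 UMIs) and 70.2 CPM (71 UMIs), and 3 of the 8 were higher with knockout. Fgf8 and Fgf17 were at 0 in both libraries, Pax2 and Pax8 with knockout. Other lists differed there too: the hypothalamic markers summed to 7.75 and 30.6 CPM (1.98, 0.77 to 3.41), the Cajal-Retzius markers to 603 and 766 CPM (0.35, 0.19 to 0.51), the choroid plexus markers to 197 and 246 CPM (0.32, 0.04 to 0.61) and the erythroid markers to 789 and 555 CPM (−0.51, −0.67 to −0.34). The part of these lists in the Lef1 difference was not tested.

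In the finer clustering, 78.4% of the nuclei of cluster 6 lay in 1 set. The second set described here held 53.7% of the Cajal-Retzius cell-like nuclei of the main setting, so its values are not those of cluster 6 alone. In the larger set, led by Tfap2d and Pou4f1, with 247 and 261 nuclei, Lef1 was at 456 and 262 CPM (−0.80, −1.05 to −0.55). In a second set led by Barhl1, Ebf2 and Cnpy1, with 83 and 161 nuclei, Lef1 was at 1316 and 483 CPM (−1.45, −1.72 to −1.17), and the boundary markers summed to 46.8 and 274 CPM. There En1, Pax2, Pax5, Pax8, Fgf8 and Fgf17 were at 0 with wildtype, and Pax8, Fgf8 and Fgf17 with knockout. In that second set Tcf7l2 was at 588 and 697 CPM (0.25, −0.07 to 0.57). The best-matching clusters under the other clusterings gave Lef1 log2 ratios of −0.78 to −1.12. In cluster 13 Lef1 was at 231 and 214 CPM (−0.10, −0.45 to 0.24).

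Tcf7l2 differed in another place. In the neuron-like cluster 0, a mixed set led by Skor2, Chat and Sim1 with 652 and 1237 nuclei, it was at 408 CPM (1130 UMIs) and 231 CPM (1437 UMIs), with the log2 ratio at −0.82 (−0.93 to −0.71). There 2 of 27 genes were past 1.5-fold lower, Tcf7l2 and Dkk2 (4.64% of all genes), and 2 were higher, Rspo2 and Sfrp4 (6.4%). Lef1 was lower too, at 74.8 and 51.7 CPM (−0.53, −0.79 to −0.28), with −0.18 to −0.92 in the best-matching clusters of other settings, against −0.78 to −0.93 for Tcf7l2. A Tcf7l2 UMI was found in 34.8% and 26.7% of nuclei, and in 22.8% and 13.1% after thinning.

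Cluster 0 is the one where all 8 boundary markers were higher with knockout, and the 7 hypothalamic markers summed to 56.4 and 96.2 CPM. Other lists were lower with knockout. Among them, dividing cell markers summed to 184 and 119 CPM and fibroblast markers to 47.7 and 30.7 CPM. Erythroid markers summed to 588 and 402 CPM and endothelial ones to 56.0 and 41.5 CPM. The part of these lists in the Tcf7l2 difference was not tested. When the cluster was divided further, Tcf7l2 was lower in each of 4 finer sets that hold nuclei of it: 433 against 236 CPM in the set led by Chat, 370 against 128 CPM in the set led by Cyp19a1 and Sim1, 389 against 161 CPM in the set led by Ebf2 and Skor2, and 436 against 352 CPM in a small set of very deep nuclei led by Nts.

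The other clusters with at least 200 nuclei in each library follow. In cluster 3, forebrain inhibitory neuron-like, 4 of 16 genes were higher (Axin1, Fzd2, Lef1 and Wnt5b), where 8.06% of all genes were, and 0 were lower (7.08%). Lef1 was at 11.8 and 33.7 CPM there on 11 and 28 UMIs, with the log2 ratio at 1.51 (0.46 to 2.66). In the other forebrain inhibitory neuron-like cluster, cluster 7, 0 of 14 were higher (9.06%) and 2 were lower (8.37%), Sfrp1 and Wnt7b.

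The cortical excitatory neuron-like clusters did not share a direction. In cluster 2, 3 of 17 genes were higher (6.61% of all genes), Dkk2, Fzd2 and Wnt5b, and 0 were lower (6.87%). In cluster 5, 0 of 14 were higher (7.16%) and 3 were lower (7.58%), Sfrp1, Tcf7l2 and Wnt7b. In cluster 9, 2 of 14 were higher (8.33%), Lef1 and Wnt5b, and 3 were lower (8.53%), Fzd2, Lrp5 and Tcf7l2. Wnt7b in cluster 5 was at 118 and 76.5 CPM on 113 and 57 UMIs (−0.63, −1.11 to −0.15).

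In the dividing cell-like cluster 8, 0 of 14 genes were higher (9.48%) and 1 was lower (8.95%): Axin1, at 85.8 and 41.1 CPM on 42 and 20 UMIs (−1.06, −1.91 to −0.26). In the unnamed cluster 1, 0 of 16 were higher (8.94%) and 0 were lower (9.31%). Fzd3 and Ctnnb1 had intervals that included 0 in each of the 10 clusters compared. In the whole forebrain inhibitory neuron-like class Fzd3 was at 155 and 187 CPM (0.27, 0.0057 to 0.53), and over all nuclei Ctnnb1 was at 210 and 192 CPM (−0.13, −0.19 to −0.06), both intervals leaving out 0.

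**Figure D5:**
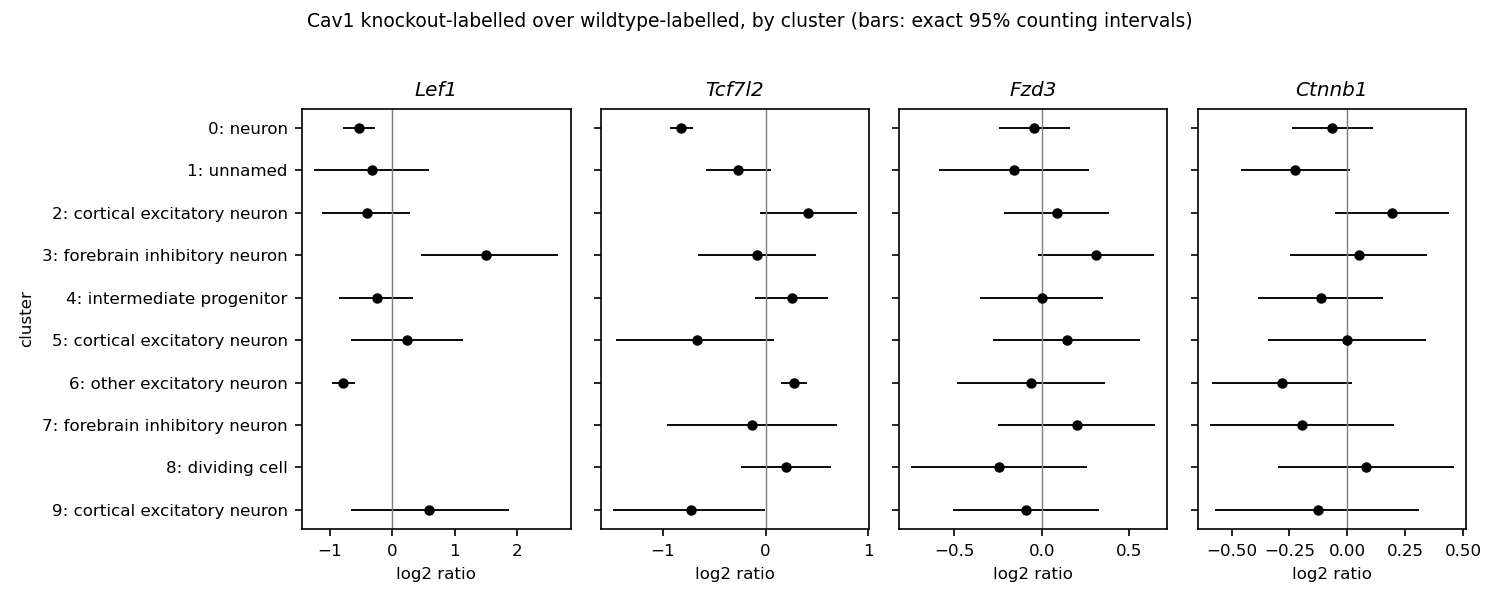
Log2 ratio, knockout over wildtype, for Lef1, Tcf7l2, Fzd3 and Ctnnb1 in clusters with at least 200 nuclei and 20 UMIs of the gene, with exact 95% counting intervals; the vertical line marks 0. Lef1 lies at −0.79 in cluster 6 and at 1.51 in cluster 3, Tcf7l2 at −0.82 in cluster 0 and 0.28 in cluster 6, and every interval of Fzd3 and Ctnnb1 includes 0.

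Radial glia-like nuclei numbered under 200 in the wildtype-labelled library, so no count past 1.5-fold and no share of all genes are given for them. Rspo2 was at 348 and 206 CPM (−0.75, −1.08 to −0.43) and Rspo1 at 88.1 and 36.9 CPM (−1.25, −2.00 to −0.53). Lef1 was at 110 and 59.8 CPM (−0.88, −1.49 to −0.28) and Axin2 at 134 and 86.6 CPM (−0.63, −1.15 to −0.11). The intervals of Ctnnb1, Tcf7l2, Wnt3a and Wnt9a also lay below 0. In the other direction Wnt5a was at 30.8 and 61.1 CPM on 14 and 48 UMIs (0.99, 0.10 to 1.96), and Fzd9 had 2 and 16 UMIs (2.21, 0.12 to 5.37). Rspo3 and Wnt7b had ratios of 0.19 (−0.15 to 0.54) and 0.13 (−0.39 to 0.67). Of the 191 and 273 nuclei of this class, 72 and 59 belonged to the Ttr and Lmx1a cluster. There the intervals of the Rspo2, Rspo1 and Axin2 ratios included 0. The finer cluster that held 71.1% of the class had Rspo2 at 44.5 and 18.1 CPM. The part of these finer clusters in the class values was not tested. The 5 hem or roof plate markers summed to 181 and 141 CPM over the class with Gdf7 at 0 in wildtype, and the 8 boundary markers to 59.4 and 112 CPM with none at 0. Of them 3 and 4 were higher with knockout. The choroid plexus markers summed to 654 and 504 CPM, those of endothelial cells to 33.0 and 71.3 CPM and those of erythroid cells to 916 and 663 CPM. The part of these lists in the values was not tested.

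Counting may blur a few of these genes. On GRCm39 with the GENCODE M39 annotation, 34 of the 50 genes are overlapped by a gene on the other strand, among them Wnt1 and Wnt10b, which overlap each other on chromosome 15. Lef1 spans chr3:130903919-131018005 on the plus strand with the antisense gene Lef1os1, and Tcf7l2 spans chr19:55730188-55922091 on the plus strand. Whether the counting used the strand is not given in the sources used here.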

How the data were processed

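Whole fetal mouse brain nuclei were captured with 10x Genomics 3′ chemistry v3.1, per the labels' protocols, with 1 library per genotype. The deposited values are raw UMI counts per gene and barcode. Cell Ranger 6.1.1 stands in the file headers as the software behind them. The submitters' processing notes name Cell Ranger 3.0.1, STAR and GRCm39. Whether intronic reads or strand were used is not given in the sources used here. Nuclei with at least 500 genes and at most 5% mitochondrially encoded UMIs were kept. Scrublet (scanpy 1.11.5) marked 1 nucleus per library by its own threshold, so the 8% with the highest scores were set aside from clustering, leaving 6151 and 6146 nuclei. Clustering used 2000 variable genes (Wnt pathway genes, Cav1, mitochondrial and sex-linked genes left out), 30 principal components, 15 neighbours and Leiden resolution 1, and resolution 2 for the finer clusters. A class name needed 3 markers at 2-fold or more. Names were rebuilt here, since no annotation of nuclei by the authors was used. The neuron-like class was not compared as a class, because leading genes of its clusters were markers of other classes.

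UMIs were summed per library and class and scaled to CPM, with exact Poisson 95% intervals, and ratios have exact conditional binomial intervals. Both cover counting error only. Ratios were checked on simulated data. Genes with at least 100 UMIs (20 within a class) and 1.5-fold were counted, beside the share of all genes past it. Every gene of the rule is named, with further pathway genes from a list. The members and lists were chosen with earlier results of these data known. Promoter windows came from RefSeq. The alternatives tried were gene and mitochondrial limits, doublets, scaling, class weights, UMI minimums, fold, and 5 other clusterings. The best-matching and single clusters and the finer sets were chosen after seeing the data. All value columns were used.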

Additional observations from a re-analysis of the deposited data

Results flagged for a closer look

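Lef1 and Tcf7l2 had ratios between the libraries that pointed in opposite directions in different nuclei, each with a counting interval that did not include 0. The difference between the places was not tested in any of these cases, since each genotype is 1 library. For Lef1 the log2 ratio of the knockout-labelled over the wildtype-labelled library was −0.54 in other excitatory neuron-like and 1.08 in forebrain inhibitory neuron-like nuclei, and −0.79 in cluster 6 and 1.51 in cluster 3. The positive values rest on few molecules, 15 and 29 UMIs in the class and 11 and 28 in the cluster. For Tcf7l2 it was −0.82 in cluster 0 and 0.28 in cluster 6, on 854 or more UMIs in each library.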

How the results depend on the processing

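No paired analysis was possible because each genotype has 1 library and the labels give no replicate numbers that join them. For the same reason leaving out a replicate was not possible. Over all nuclei, the median log2 ratio of the Wnt genes stayed below 0 under every alternative, between −0.16 and −0.07, and no gene with 100 UMIs passed 1.5-fold under another gene limit, mitochondrial limit, doublet choice, scaling or class weighting. With a minimum of 20 UMIs 1 of 39 genes was past 1.5-fold higher and 1 lower (5.87% and 3.39% of all genes), and with 1 UMI in each library 6 of 48 were higher and 3 lower (12.5% and 9.58% of all genes). The class of highest level over both libraries was kept by 15 of 31 genes at resolution 2 and by 18 with doublet-scored nuclei kept. Within classes, 13 of 107 ratios were past 1.5-fold (12.4% over all genes), against 27 of 112 at resolution 0.5 (13.8%), 30 of 133 at resolution 2 (13.1%) and 26 of 159 with doublet-scored nuclei kept (12.2%). These all-gene shares were computed after the data were seen. The Axin2 ratio in intermediate progenitor-like nuclei changed sign, to 0.0027 with Wnt genes allowed among the variable genes, 0.086 at resolution 2 and 0.44 with doublets kept, as did Sfrp1 in other excitatory neuron-like nuclei (0.12, thinned nuclei) and Lef1 in the cluster matching cluster 3 (−0.58 on 6 and 3 UMIs, resolution 2). The cause was not tested. Depth limits the 19 genes under 100 UMIs, for which no ratio is given.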

Other observations

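For other genes of the pathway the class of highest level is given with its values, wildtype-labelled first. Ror1 and Ror2, receptors of β-catenin-independent Wnt signalling, were highest in fibroblast-like nuclei, at 1122 and 863 CPM and at 576 and 480 CPM. Tnfrsf19, a feedback target, was highest there as well, at 321 and 295 CPM. Sostdc1, a secreted antagonist, was highest in choroid plexus epithelium-like nuclei, at 132 and 174 CPM on 11 and 18 UMIs, and Daam2, which relays Wnt signals in the cytoplasm, in mural cell-like nuclei, at 523 and 344 CPM. Of the planar cell polarity genes, Celsr1 (449 and 465 CPM) and Vangl2 (252 and 282 CPM) were highest in intermediate progenitor-like nuclei. Draxin, an axon guidance protein that also binds Lrp6, was highest in Cajal-Retzius cell-like nuclei, at 231 and 241 CPM. These genes were singled out after their values were seen.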
